A study of Mus musculus with 6 samples.

Results

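AP-1 factors and immediate early genes were followed as 10 genes, Fos, Fosb, Fosl1, Fosl2, Jun, Junb, Jund, Egr1, Ier2 and Atf3, out of 13405 genes with a value in the deposited tables. The members were taken by gene symbol, and each symbol matched 1 row. The samples were 3 RNA-seq libraries of ATM KO (knockout) 4T1 cells and 3 libraries of vector control 4T1 cells, all cultured. 4T1 is a mouse mammary carcinoma line from a BALB/c mouse, and Atm encodes a kinase activated by double-strand breaks in DNA. Neither group is labelled with a treatment, a stimulus or a time, and the guide, the clone or pool and the culture density are not given in the sources used here. Separate cultures, dishes or clones within a group are not recorded in the labels, so every p-value here sets a difference against library-to-library spread that may be only technical.

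AP-1 is a dimer of basic leucine zipper proteins, in which a JUN family protein pairs with another JUN, a FOS or an ATF family protein on a short DNA element. Fos, Jun, Egr1 and Ier2 are classical immediate early genes: growth factors and stress switch them on within minutes, through MAP kinases and the factors SRF, ELK and CREB, without new protein synthesis, and their mRNAs decay fast. Fosl1 (FRA-1) and Fosl2 (FRA-2) last longer, FRA-1 is a known AP-1 factor of invasive mammary carcinoma cells, and Atf3 responds to many stresses.

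The promoter of Junb is shown because this gene had the largest difference between the groups, those of Fos and Jun because each is a classical immediate early gene and their profiles over the libraries lay close, and that of Atf3 because its mRNA ran the other way. The choice was made after the values were seen. Each run is the 250 bases upstream of the RefSeq start site (GRCm38.p6), read 5′ to 3′ along the gene. Capitals mark the CRE core TGACGT (on either strand), the TATA box TATAAA, the octamer TGACATCA in Jun and the octamer TTACGTCA in Atf3, which contains the reverse of the CRE core.
Fos, chr12:85473640-85473889, plus strand: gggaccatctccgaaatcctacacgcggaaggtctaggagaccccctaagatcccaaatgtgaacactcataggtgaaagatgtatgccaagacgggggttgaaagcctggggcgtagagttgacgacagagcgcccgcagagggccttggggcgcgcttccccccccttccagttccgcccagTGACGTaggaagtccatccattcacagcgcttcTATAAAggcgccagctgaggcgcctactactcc
Jun, chr4:95052223-95052472, minus strand: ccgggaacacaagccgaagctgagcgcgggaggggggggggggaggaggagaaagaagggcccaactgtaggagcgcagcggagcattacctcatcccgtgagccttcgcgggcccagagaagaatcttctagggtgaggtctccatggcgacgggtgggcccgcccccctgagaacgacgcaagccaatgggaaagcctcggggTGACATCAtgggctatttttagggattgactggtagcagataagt
Junb, chr8:84978749-84978998, minus strand: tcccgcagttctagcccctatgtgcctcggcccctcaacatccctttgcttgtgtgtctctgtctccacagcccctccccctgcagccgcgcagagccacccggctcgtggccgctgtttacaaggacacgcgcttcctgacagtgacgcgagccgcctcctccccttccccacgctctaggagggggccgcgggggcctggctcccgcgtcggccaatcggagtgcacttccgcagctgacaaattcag
Atf3, chr1:191183334-191183583, minus strand: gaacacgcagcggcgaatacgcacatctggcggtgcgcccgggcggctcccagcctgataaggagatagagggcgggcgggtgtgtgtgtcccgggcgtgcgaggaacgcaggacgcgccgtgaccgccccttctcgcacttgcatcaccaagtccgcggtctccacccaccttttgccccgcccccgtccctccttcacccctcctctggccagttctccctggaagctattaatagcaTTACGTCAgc

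Among the 32851 upstream windows of the same length in the RefSeq table, 6.47% held TGACGT, 2.93% TGACATCA and 0.447% TTACGTCA, counting both strands. TATAAA, read along the gene only, was in 7.59%. In Fos the CRE core lay at bases -66 to -61 from the start and TATAAA at -33 to -28, the octamer of Jun lay at -45 to -38, and that of Atf3 at -10 to -3. The consensus AP-1 site TGANTCA, found in 6.75% of windows, was in none of the 4 shown. These are matches of letters, not tested sites. The RefSeq start of Junb, at 84978748, lies upstream of the GENCODE gene, which begins at 84978718 on this strand. The Atf3 start used here lies inside the longer GENCODE gene, downstream of another annotated start.

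The libraries held between 22494919 and 32341508 reads assigned to the listed genes. Values are normalized read counts, and 12149 genes with a mean of at least 10, all 10 members among them, were tested. Across all tested genes, the leading principal component (59.4% of the variance) placed ATM KO 1 to 3 at 3.19, -41.5 and 50.7 and vector controls 1 to 3 at -86.2, 36.9 and 37.0, so vector controls 2 and 3 lay together and vector control 1 far from both. Atm mRNA stood at 1959, 2219.8 and 1591 in ATM KO 1 to 3 and at 1978, 1613 and 1519 in vector controls 1 to 3, so its level does not tell the groups apart and the labels rest on the submitters. All 8 epithelial markers were listed, with sums of 101687 to 138595 in ATM KO and 80526 to 115328 in vector control libraries. Epcam, Cdh1, Krt8, Krt18 and Krt7 were at 6116 or more in every library, Krt19 was at 4679 or more in ATM KO and 2913 or more in vector control libraries, and Krt5 was at 0 in all 6. Krt14, a basal keratin gene that is also on the list of AP-1 targets used here, stood at 2223, 1369.9 and 2311 in ATM KO 1 to 3 and at 149.9, 684 and 654 in vector controls 1 to 3, without overlap. Of 13 immune markers 4 were listed, with a summed value of 715 to 1781 in ATM KO and 535 to 1467 in vector control libraries, nearly all from Cd68 and Csf1r, while S100a8 and S100a9 were at 12.7 or less. Csf1r, the CSF1 receptor gene, stood at 968, 438 and 1119 in ATM KO 1 to 3 and at 229, 378 and 387 in vector controls 1 to 3, without overlap. Over all tested genes 5.7% had their 3 knockout libraries above all controls, as Krt14 and Csf1r did. Cd68, a lysosomal macrophage marker, stood at 806, 264 and 227 in ATM KO 1 to 3 and at 301, 1001 and 1080.1 in vector controls 1 to 3, with overlap and a log2 fold change of -0.92, against 1.27 for Csf1r. Of 9 fibroblast markers 3 were listed, with sums of 344 to 754 in ATM KO and 146 to 547 in vector control libraries, most of it Pdgfra. Of 7 endothelial markers only Cdh5 was listed. Endothelial sums were 0 to 6.84 in ATM KO and 2.10 to 11.7 in vector control libraries. The part of other cells in the results was not tested.

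No member passed the test in either direction, and the genes differed in how they varied. Fos, Jun, Egr1, Junb, Ier2 and Fosl2 ranged over 2.62-fold to 29.5-fold across the 6 libraries. Jund, Fosb and Fosl1 ranged over 1.18-fold to 1.67-fold, and Atf3 ran opposite. Inside the groups the spread was widest in Egr1, Fos and Jun and narrower in Junb, Ier2 and Fosl2. The within-group SD exceeded that of 79.6% of tested genes in Junb, 67.4% in Ier2 and 61.2% in Fosl2, against 41.1% in Fosl1. By limma 0 of 10 members and 0% of the 12149 tested genes passed an adjusted p of 0.05, and 0 members and 505 genes (4.16%) had an unadjusted p under 0.05. By edgeR 0 members and 0% of genes passed (522 genes with an unadjusted p under 0.05), and by DESeq2 0 members and 84 genes (0.691%; 717 unadjusted). Log2 fold changes were above 0 in 8 members and below 0 in 2, and their median was 0.42, against -0.0090 over all tested genes. That median was 0.20 without vector control 1, 0.66 without vector control 2, 0.67 without vector control 3, 0.73 without ATM KO 2 and 0.17 without ATM KO 3.

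**Figure D1:**
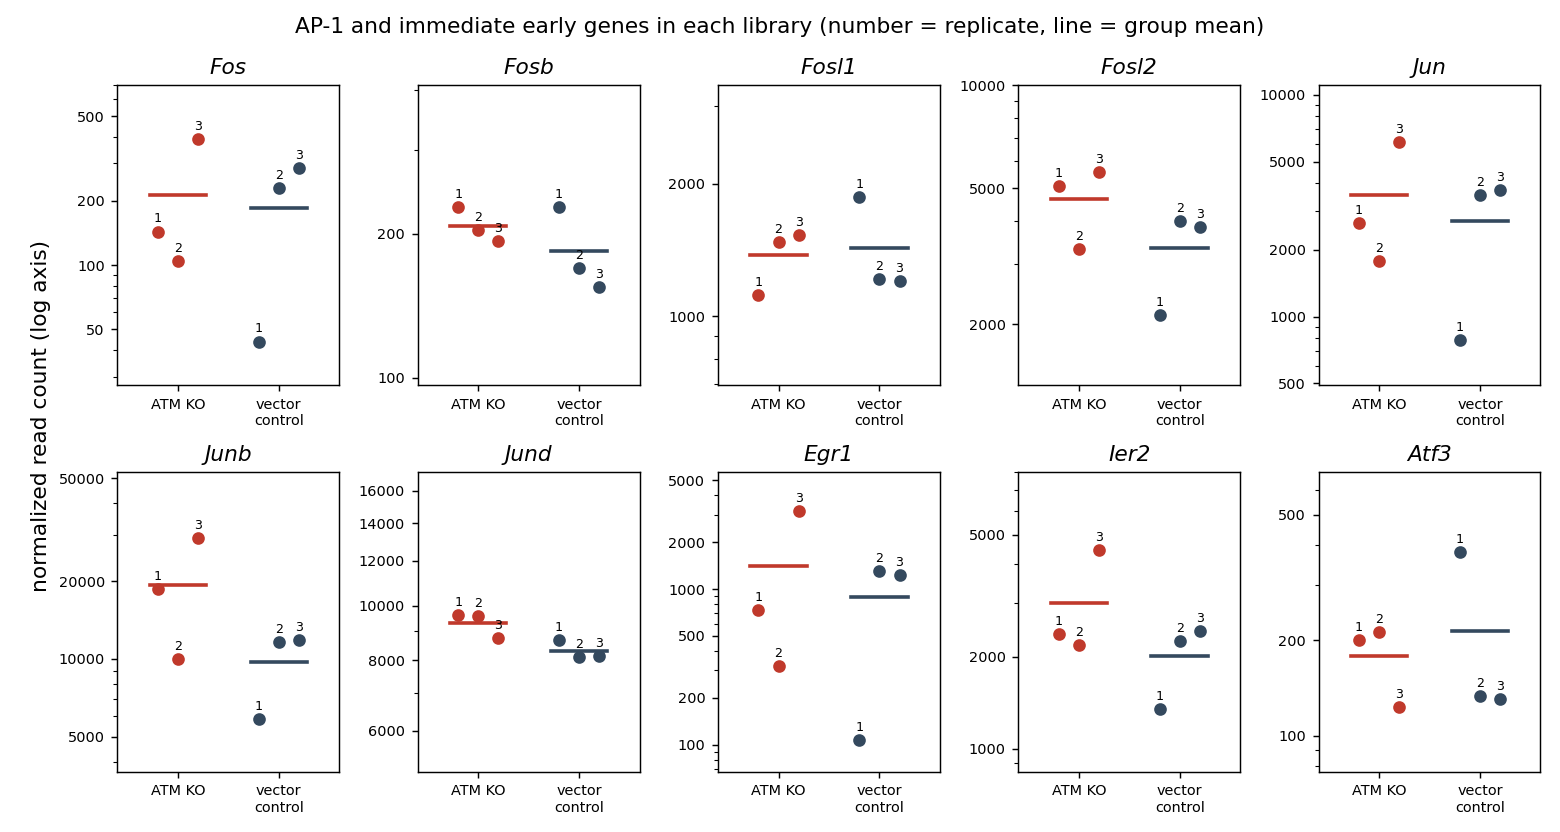
Normalized read counts (log axis, a separate range for each gene) of the 10 genes in each library, with ATM KO libraries in red on the left and vector control libraries in dark blue on the right. Digits are replicate numbers and lines are group means; in Fos, Jun, Egr1, Junb, Ier2 and Fosl2 vector control 1 is the lowest point and ATM KO 3 the highest, and only in Jund do all red points lie above all blue ones.

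The JUN family supplies the obligate partner of FOS proteins. Junb (ENSMUSG00000052837, chromosome 8, 84974484 to 84978718, minus strand, GRCm38) encodes a JUN protein with weaker transforming activity than JUN. Junb stood at 18582.5, 9964 and 29404 in ATM KO 1 to 3 and at 5865, 11662 and 11789.5 in vector controls 1 to 3. ATM KO 1 and 3 lay above every control, but ATM KO 2 lay between the controls, so the groups overlapped. Its means were 19317 ± 9741 in ATM KO and 9772 ± 3384 in vector control cells (SD, n = 3 each), a log2 fold change of 0.92 (SE 0.46, 95% interval -0.18 to 2.02). That was the largest difference among the members and did not pass (limma adjusted p = 0.999, edgeR adjusted p = 0.9999, DESeq2 adjusted p = 0.763). Junb was the only member with an unadjusted p under 0.05 in DESeq2, and none had one in limma or edgeR. The log2 fold change of Junb was 1.33 without ATM KO 2, 0.59 without vector control 1 and 0.55 without ATM KO 3, positive throughout.

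Jun (ENSMUSG00000052684, chromosome 4, 95049034 to 95052222, minus strand) encodes the founding member of AP-1. Jun stood at 2653, 1787 and 6153 in ATM KO 1 to 3 and at 786, 3535 and 3734 in vector controls 1 to 3. The lowest and the highest controls bracketed 2 of the 3 knockout libraries, with vector control 1 far below and ATM KO 3 far above the rest. The log2 fold change was 0.50 (SE 0.72, 95% interval -1.25 to 2.24; limma adjusted p = 0.999), and it turned to -0.24 without vector control 1 and to -0.0028 without ATM KO 3.

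Jund (ENSMUSG00000071076, chromosome 8, 70698949 to 70700616, plus strand) encodes the JUN protein that many cells make constitutively. Jund stood at 9602, 9564 and 8763 in ATM KO 1 to 3 and at 8683, 8109 and 8144 in vector controls 1 to 3. The groups did not overlap, and the closest pair was ATM KO 3 and vector control 1. Jund was the only such member of 10, where 5.7% of all tested genes had their 3 knockout libraries above all controls, and 0 members had theirs below, against 5.48% of genes. With ATM KO 2 left out this held for 3 members (Fosl2, Junb and Jund; 12.2% of genes), and with ATM KO 2 and vector control 1 left out for 4 (these and Fosb; 26.7% of genes). Its mean was 9309 ± 474 in ATM KO and 8312 ± 321 in vector control cells (SD, n = 3 each), and the log2 fold change of 0.16 (SE 0.12, 95% interval -0.13 to 0.45) did not pass limma (adjusted p = 0.999). Its within-group SD of 0.066 on the log2 scale was below that of all but 1.71% of tested genes.

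Among the FOS family, Fosl2 (ENSMUSG00000029135, chromosome 5, 32135801 to 32157842, plus strand) had the largest difference. Fosl2 stood at 5054, 3322 and 5562 in ATM KO 1 to 3 and at 2123, 4017 and 3845 in vector controls 1 to 3. ATM KO 1 and 3 were above all controls and ATM KO 2 lay below vector controls 2 and 3. The log2 fold change was 0.50 (SE 0.32, 95% interval -0.26 to 1.27; limma adjusted p = 0.999), and 0.21 without vector control 1.

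Fosl1 (ENSMUSG00000024912, chromosome 19, 5447547 to 5455946, plus strand) stood at 1116, 1475 and 1531 in ATM KO 1 to 3 and at 1861, 1214 and 1199 in vector controls 1 to 3. Here vector control 1 was the highest library, and the knockout libraries lay on both sides of vector controls 2 and 3. The log2 fold change was -0.035 (SE 0.24, 95% interval -0.62 to 0.55), and it was 0.17 without vector control 1 and 0.11 without ATM KO 1. Ccdc85b, a gene on the opposite strand that overlaps Fosl1 over 2767 bases, stood at 869 ± 157 in ATM KO and 1255 ± 193 in vector control cells (SD, n = 3 each). Junb overlaps Prdx2 over 351 bases and Jund overlaps the antisense gene Gm11175 over 919. Jun overlaps the antisense gene Junos over 689 bases and Atf3 overlaps Gm24748 over 108, and neither of these has a value in the deposited data. Whether reads were counted by strand is not stated, so reads of such stretches cannot be assigned with certainty.

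Fos (ENSMUSG00000021250, chromosome 12, 85473890 to 85477273, plus strand) encodes the prototype immediate early factor. Fos stood at 144, 105 and 389 in ATM KO 1 to 3 and at 43.8, 229 and 285 in vector controls 1 to 3. The lowest of these rests on 45 reads, with an exact 95% Poisson interval of 32.8 to 60.2 that covers counting error only, so the gap to the other controls is larger than counting error. Fos had a log2 fold change of 0.34 (SE 0.83, 95% interval -1.66 to 2.34), which turned to -0.498 without vector control 1 and to -0.21 without ATM KO 3. Fosb (ENSMUSG00000003545, chromosome 7, 19302696 to 19310051, minus strand), its close relative, was nearly level. Fosb stood at 228, 204 and 193 in ATM KO 1 to 3 and at 228, 169 and 154 in vector controls 1 to 3, a log2 fold change of 0.195 (SE 0.25, 95% interval -0.41 to 0.80), with 0.36 when vector control 1 was left out and 0.081 when vector control 3 was. The knockout values lay between vector control 1 and the other 2 controls, and without vector control 1 the groups no longer overlapped, with ATM KO higher, as in 19.6% of tested genes.

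Egr1 (ENSMUSG00000038418, chromosome 18, 34859823 to 34864984, plus strand), a zinc finger factor and target of SRF and ELK proteins, varied most. Egr1 stood at 728, 322 and 3155 in ATM KO 1 to 3 and at 107, 1302 and 1239 in vector controls 1 to 3. The range was 9.81-fold within the knockout group and 12.2-fold within the controls, against 1.62-fold between the groups (log2 fold change 0.70, SE 1.22, 95% interval -2.23 to 3.62; limma adjusted p = 0.999). That difference was -0.49 without vector control 1 and -0.20 without ATM KO 3. The within-group SD of Egr1, 1.87 on the log2 scale, exceeded that of 98.2% of tested genes, and Fos (1.25, 94.4%) and Jun (1.11, 92.5%) were also among the most variable, beside a median SD of 0.37 over all tested genes.

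Ier2 (ENSMUSG00000053560, chromosome 8, 84661331 to 84662852, minus strand), a nuclear immediate early protein, stood at 2365, 2181 and 4468 in ATM KO 1 to 3 and at 1345, 2247 and 2419.7 in vector controls 1 to 3. Apart from the low vector control 1 and the high ATM KO 3, the remaining 4 libraries lay close together. The log2 fold change of 0.55 (SE 0.36, 95% interval -0.31 to 1.41) was 0.23 without ATM KO 3 and did not pass (limma adjusted p = 0.999).

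Atf3 (ENSMUSG00000026628, chromosome 1, 191170296 to 191218039, minus strand) encodes a stress-induced member of the ATF family. Atf3 stood at 200.2, 212 and 123 in ATM KO 1 to 3 and at 380.5, 133 and 130.3 in vector controls 1 to 3. Vector control 1 was the highest and ATM KO 3 the lowest, the reverse of Fos, Jun and Egr1. The log2 fold change was -0.11 (SE 0.49, 95% interval -1.30 to 1.07), and 0.39 without vector control 1 and 0.13 without ATM KO 3. Atf4, which drives Atf3 in the integrated stress response, was likewise highest in vector control 1, at 3304, 5167 and 3073 in ATM KO 1 to 3 and 8498, 4573 and 4433 in vector controls 1 to 3. Vector control 1 was the highest library in 6 of the 14 tested genes of that response and in 31.9% of all tested genes. Of 14 tested genes of that response 0 passed limma or DESeq2. Their median log2 fold change was -0.13, against -0.0090 over all tested genes, and the groups did not overlap in 4, with ATM KO lower in 3 (Ddit3, Trib3 and Psat1), where 5.48% of all tested genes had that pattern, and higher in 1, where 5.7% did. Psat1, a serine synthesis gene, stood at 8107, 9541.5 and 4432 in ATM KO 1 to 3 and at 17615, 10004.5 and 10103 in vector controls 1 to 3. Ddit4, an inhibitor of mTORC1, had a log2 fold change of 0.021 (SE 0.94). Ddit3 and Trib3 were named after their values were seen.

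**Figure D2:**
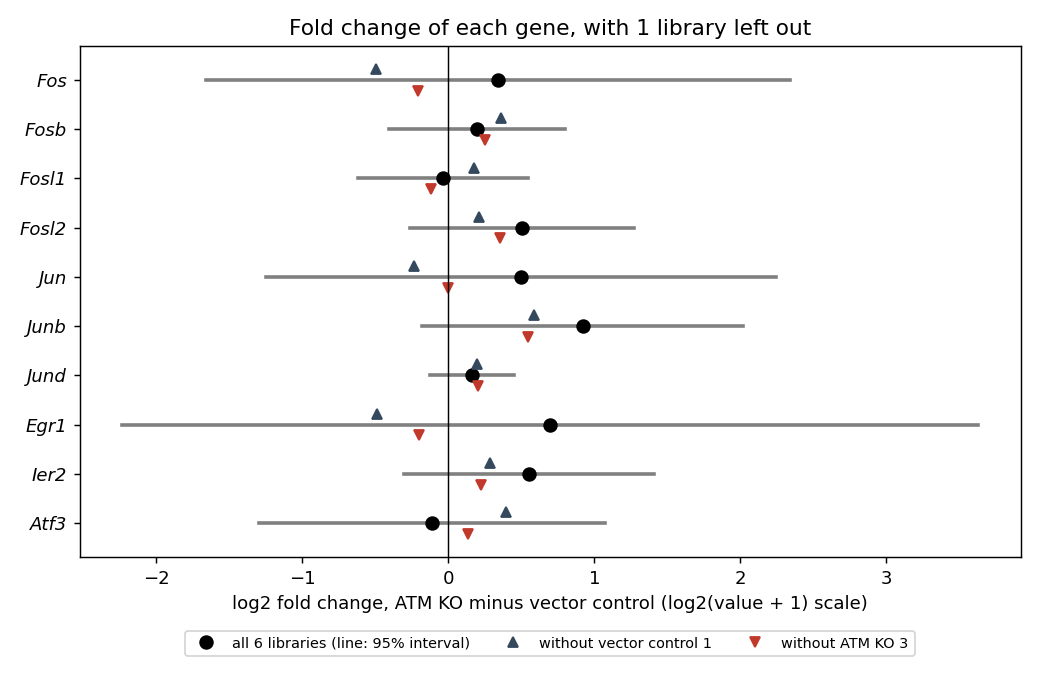
Log2 fold change of each gene (difference of means of log2(value + 1), ATM KO less vector control), with its 95% interval from limma (black points and grey lines) and the values without vector control 1 (upward triangles) and without ATM KO 3 (downward triangles). Every interval spans 0, and Fos, Jun and Egr1 lie above 0 with all libraries, at -0.498, -0.24 and -0.49 without vector control 1 and at -0.21, -0.0028 and -0.20 without ATM KO 3.

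Compared per kb of exon, which allows levels to be set beside each other, Junb and Jund mRNA were by far the most abundant. The level per kb was 8395 ± 4233 for Junb and 5581 ± 284 for Jund in ATM KO cells, and 4247 ± 1471 for Junb and 4983 ± 193 for Jund in vector control cells (SD, n = 3 each). The ranges of these 2 genes overlapped in both groups, so their order is not resolved. Ier2 followed at 1974 ± 835 in ATM KO and 1317 ± 379 in vector control cells, and its range did not reach that of Junb or Jund. The order below was Jun, Fosl1, Fosl2 and Egr1 in both groups, with means per kb of 1107, 676, 480.0 and 313 in ATM KO and 842, 701, 344 and 197 in vector control cells. Neighbours in that order overlapped in range, except Fosl1 and Fosl2 in the controls. In both groups Egr1 in turn overlapped the gene below it. Fos and Atf3 stood at 90.4 and 82.8 per kb in ATM KO and 79.1 and 99.7 in vector control cells with overlapping ranges. Fosb was lowest, at 33.3 ± 2.82 in ATM KO and 29.4 ± 6.20 in vector control cells, apart from Atf3 in the knockout group and overlapping Fos in the controls. Exon length is the union over all GENCODE transcripts, so genes with long alternative exons are understated.

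The make-up of each family was computed as shares of the summed level per kb within a library. In the FOS family, FRA-1 and FRA-2 mRNAs made up most of the total: Fosl1 held 53.2% ± 8.81 in ATM KO and 60.5% ± 14.2 in vector control cells and Fosl2 37.4% ± 7.37 in ATM KO and 30.0% ± 10.05 in vector control cells (SD, n = 3 each). Fos itself held 6.66% ± 3.69 in ATM KO and 6.94% ± 4.78 in vector control cells, and Fosb 2.67% ± 0.57 in ATM KO and 2.54% ± 0.46 in vector control cells. In the JUN family Junb held 55.1%, 40.8% and 64.0% in ATM KO 1 to 3 and 31.9%, 45.9% and 45.8% in vector controls 1 to 3. Jund held 39.3%, 54.0% and 26.3% in ATM KO 1 to 3 and 65.1%, 44.0% and 43.7% in vector controls 1 to 3, and Jun between 3.08% and 10.5% in any library. None of the 7 shares passed the test: the smallest exact 2-sided permutation p was 0.3, for Junb, with an adjusted p of 0.875 over the 7 shares, where 3 against 3 libraries cannot give less than 0.1. The summed JUN family level per kb was 15083 ± 4683 in ATM KO and 10072 ± 1795 in vector control cells (exact permutation p = 0.3), and that of the FOS family 1279 ± 212 in ATM KO and 1153 ± 32.0 in vector control cells (p = 0.5, exact permutation).

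**Figure D3:**
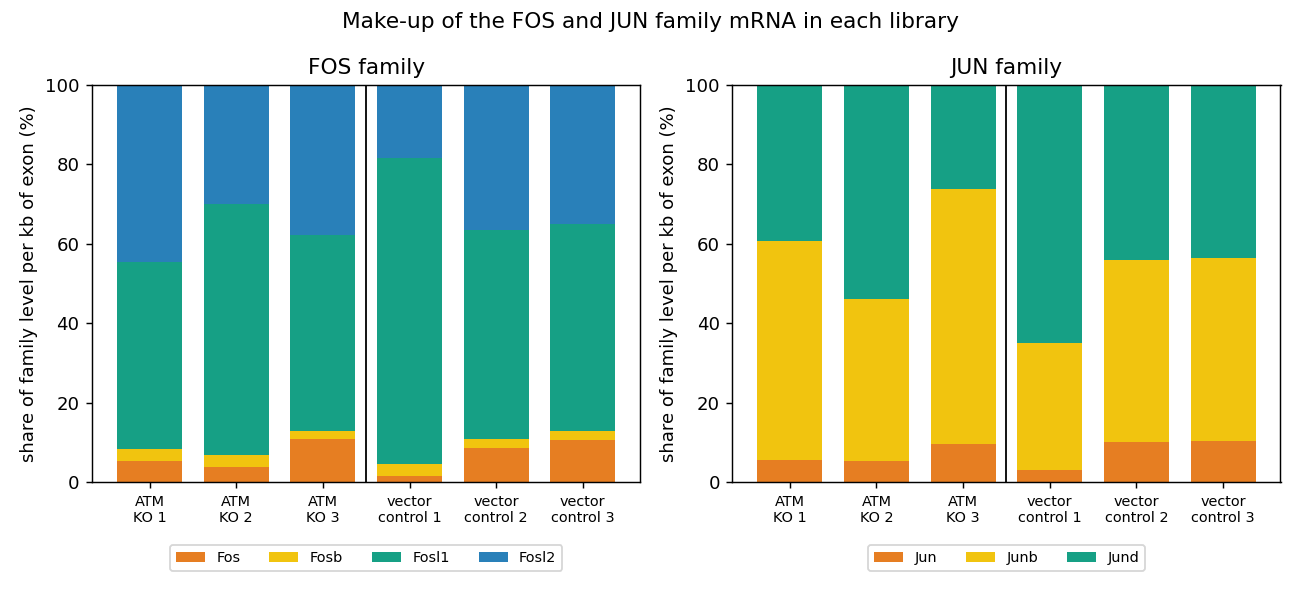
Share (percent) of each gene in the summed level per kb of exon of the FOS family (left) and the JUN family (right) in each library, with the 3 ATM KO libraries left of the vertical line and the 3 vector controls right of it. Fosl1 and Fosl2 fill most of the FOS bars, and the Junb share is highest in ATM KO 3 (64.0%) and lowest in vector control 1 (31.9%).

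The lowest and the highest library were the same in most members. Vector control 1 was lowest and ATM KO 3 highest in 6 of 10 members, where 14.7% of all tested genes had that order, and the reverse order held in 1 member, Atf3, and in 15.7% of genes. After each gene was centred on its mean, the median over the members was 0.081, -0.15 and 0.74 on the log2 scale in ATM KO 1 to 3 and -0.82, -0.090 and -0.049 in vector controls 1 to 3. Over all tested genes the same medians lay between -0.0081 and 0.015, which the scaling of the libraries sets. These are descriptions of 6 libraries, and the leading principal component given above has vector control 1 and ATM KO 3 at its ends. Vector control 1 was also lowest in 5 of the 7 tested epithelial markers, Epcam and Krt18 among them, and in 31.2% of all tested genes. Cdh1 was lowest in ATM KO 2 and Krt7 in vector control 2. The part of the epithelial markers in the members' order was not tested. In bulk RNA, fewer cells expressing a gene and less RNA per cell cannot be told apart.

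Among the members, the level genes Fosb and Jund lay closest in profile, followed by Fos and Jun. The root mean square distance between the centred log2 profiles over the 6 libraries was 0.15 for Fosb and Jund, which both varied little. It was 0.16 for Fos and Jun. The median distance from Fos to the 10399 other coding genes with a mean of at least 50 was 1.06, and Jun was the nearest of all of these to Fos. No such median was computed for Fosb or Jund. Next to Fos came Cx3cl1, which encodes the chemokine fractalkine, at 0.16 and Egln3, a prolyl hydroxylase of the hypoxia response, at 0.19. Seen from Jun, the nearest genes were Cp (ceruloplasmin), Ube2h and Lix1l at 0.12 to 0.14, and Fos ranked at 8. Nearest to Junb was Mapkapk3, a kinase downstream of p38, at 0.088, followed by D4Wsu53e and Zdhhc9. Egr1 lay at 0.22 to 0.33 from its nearest genes, Ngef, Wdr78 and Bend5, beside a median distance of 1.58 from Egr1 to the same coding genes. That median was 0.97 for Jun, 0.78 for Junb, 0.61 for Atf3, 0.58 for Ier2 and 0.54 for Fosl2. Distances are larger for genes that vary more, so they do not rank the members. Fosl2 lay nearest to Nipal3, Tcirg1 and Sema3f at 0.057 to 0.062, and Ier2 nearest to Clip2, Agtrap and Sbk1 at 0.055 to 0.069. For Atf3 the nearest were Sfxn2 at 0.035, the threonyl-tRNA synthetase gene Tars at 0.066 and the checkpoint gene Hus1 at 0.075.

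The other immediate early genes also differed in how they varied. Of 52 named, 47 were tested, 0 passed limma and 1, Errfi1, passed DESeq2 as higher in ATM KO cells. Errfi1 encodes MIG6, which binds and restrains the EGF receptor kinase, and stood at 7282, 8212 and 8040 in ATM KO 1 to 3 and at 4747, 4215 and 4188 in vector controls 1 to 3 (log2 fold change 0.84, SE 0.13; limma adjusted p = 0.799, DESeq2 adjusted p = 1.68e-05). Log2 fold changes were above 0 in 35 and below 0 in 12, the median was 0.21, and the groups did not overlap in 3 (Errfi1, Id3 and Ier5), each with ATM KO higher, a share near the 5.7% of all tested genes. Vector control 1 was the lowest library in 23 of the 47, against 31.2% of all tested genes, and ATM KO 3 the highest in 22, against 25.3%. Egr2, a relative of Egr1, stood at 12.8, 20.2 and 319 in ATM KO 1 to 3 and at 1.95, 58.0 and 67.2 in vector controls 1 to 3, and Egr3 at 26.5, 20.2 and 120.3 in ATM KO 1 to 3 and 3.89, 64.8 and 49.4 in vector controls 1 to 3, both lowest in vector control 1 and highest in ATM KO 3. Others ran with Atf3: Plk2, a polo-like kinase, stood at 3878, 4423 and 2274 in ATM KO 1 to 3 and at 9052, 2313 and 2327 in vector controls 1 to 3. The most abundant genes of the list, Myc, Klf6 and Zfp36l2, had log2 fold changes of 0.030, 0.35 and 0.18 and did not pass. Egr2, Egr3, Plk2, Id3 and Ier5 were chosen after their values were seen.

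**Figure D4:**
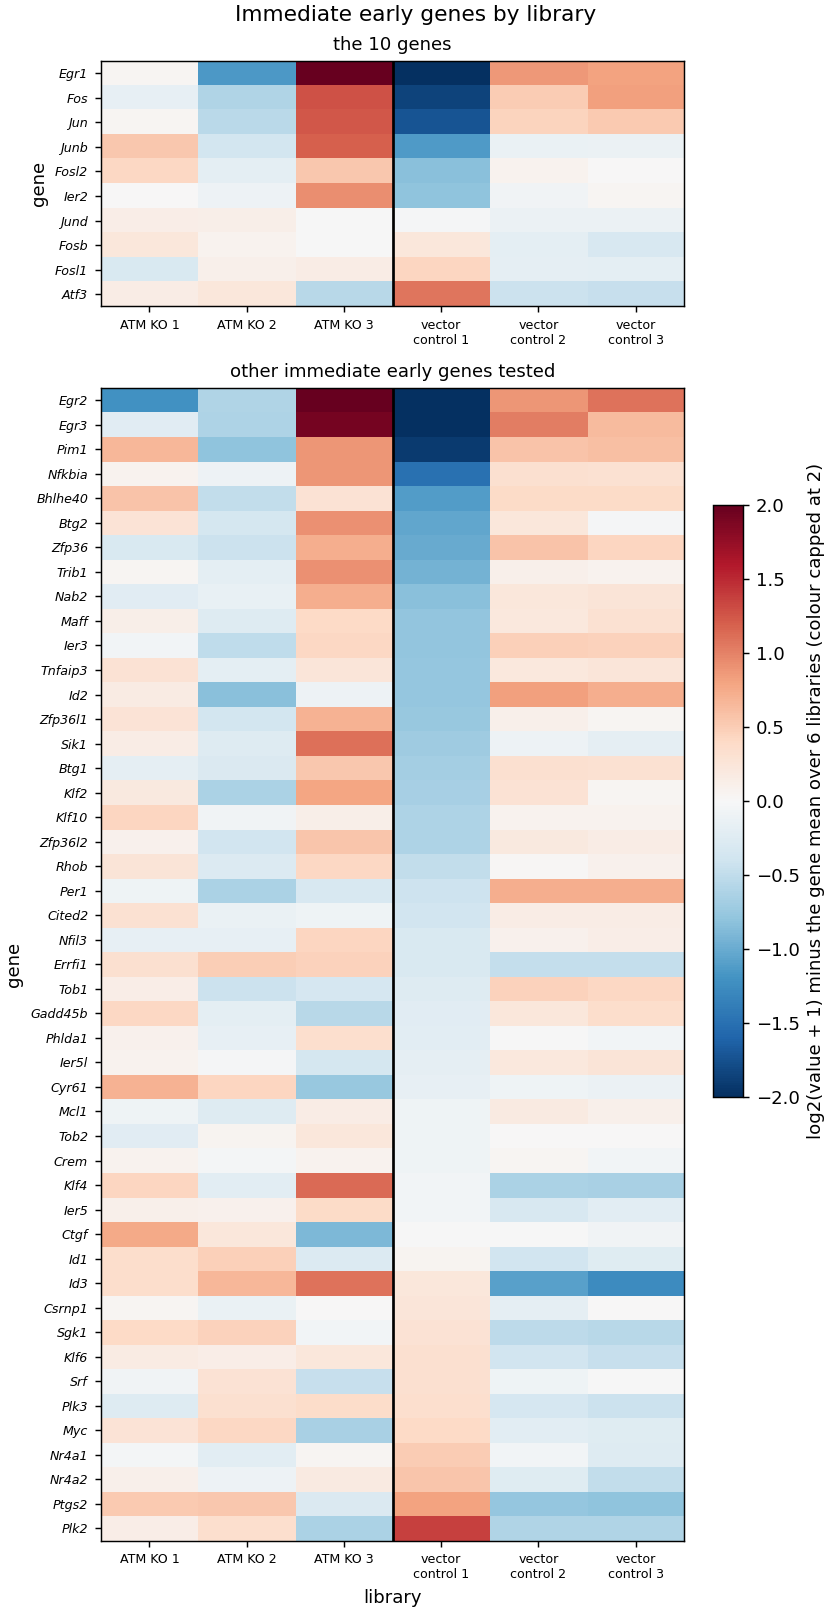
Centred log2(value + 1) of the 10 genes (upper panel) and of the 47 other immediate early genes tested (lower panel) in each library, ATM KO left and vector control right of the line, with genes ordered by their value in vector control 1. Red is above and blue below the mean of the gene over the 6 libraries, with colours capped at 2; the genes at the top of each panel, led by Egr1, Egr2 and Egr3, are low in vector control 1 and mostly high in ATM KO 3, and Atf3 and Plk2 at the bottom are high in vector control 1.

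Among the kinases and factors that switch these genes on, none passed either test. Of 17 tested SRF, TCF and ERK pathway genes 0 passed limma or DESeq2, with 9 log2 fold changes above 0 and 8 below and a median of 0.022. Vector control 1 was lowest in 10 of these 17, against 31.2% of all tested genes, and ATM KO 3 highest in 9, against 25.3%. Elk3 and Map2k1 (MEK1), among the most abundant, had log2 fold changes of 0.20 and -0.054. Elk1, the ternary complex factor that partners SRF, stood at 1437, 1577 and 1829 in ATM KO 1 to 3 and at 1030.5, 1199 and 1199.9 in vector controls 1 to 3, without overlap, and did not pass (limma adjusted p = 0.999, DESeq2 adjusted p = 0.328). It was the only such gene of the 17, where 5.7% of all tested genes had ATM KO above all controls. Elk1 was chosen after its values were seen. Srf itself stood at 1945, 2483 and 1479 in ATM KO 1 to 3 and at 2547, 1922 and 2021 in vector controls 1 to 3, and was likewise named after its values were seen. The 13 tested JNK and p38 pathway kinases had 6 positive and 7 negative values with a median of -1.32e-04, and 0 passed; Map2k3, Map3k1 and Map3k7 were the most abundant, at log2 fold changes of -0.16, -0.17 and 0.0070. Of 15 tested MAPK feedback genes 0 passed limma and 1, Errfi1, passed DESeq2, and the median was 0.14. Vector control 1 was lowest in 9 of these 15 and ATM KO 3 highest in 9, but in the 13 JNK and p38 pathway kinases in 4 and 4. Dusp4, a nuclear MAP kinase phosphatase, and Spred1, a Ras pathway inhibitor, were the most abundant beside Errfi1; the log2 fold change was 0.50 (SE 0.43) for Dusp4 and 0.12 (SE 0.25) for Spred1. Dusp1, the phosphatase that is itself an immediate early gene, stood at 654, 261 and 644 in ATM KO 1 to 3 and at 122, 572 and 521 in vector controls 1 to 3, and was also named after its values were seen.

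Among AP-1 partners and brakes, 0 of the 11 tested genes of other basic leucine zipper partners passed limma or DESeq2, with 6 positive and 5 negative values and a median of 0.14. Mafg, Atf4 and Atf2, the most abundant, had log2 fold changes of 0.16, -0.57 and -0.0088. Of 13 tested genes that turn over or restrain JUN and FOS 0 passed either tool, with a median of -0.012, and Ddb1 and Ncor1 stood at log2 fold changes of -0.12 and -0.19.

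Of 35 tested genes commonly listed as AP-1 targets, 27 had log2 fold changes above 0 and 8 below, with a median of 0.33, and 0 passed limma or DESeq2. The groups did not overlap in 6 of the 35, each with ATM KO higher, where 5.7% of all tested genes had that pattern. Plau, the urokinase gene, stood at 8067, 7054 and 14373 in ATM KO 1 to 3 and at 5450, 5646 and 5864 in vector controls 1 to 3 (log2 fold change 0.73, SE 0.27), and Csf1, the macrophage growth factor, at 9219, 12610 and 7251 in ATM KO 1 to 3 and 4482, 6417 and 6568 in vector controls 1 to 3; both were chosen after their values were seen. The most abundant, Spp1 (osteopontin), Ccnd1 (cyclin D1) and Cd44, overlapped between groups, and Spp1 stood at 46819, 38706 and 88729 in ATM KO 1 to 3 and at 5710, 49885 and 50411 in vector controls 1 to 3. Vector control 1 was lowest in 19 of the 35 and ATM KO 3 highest in 20, so the order of the libraries described above is also present here, and its part in the median was not tested.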

How the data were processed

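The 3 ATM KO and 3 vector control RNA-seq libraries were grouped by title. Per gene, the deposited files give a signal: a read count scaled by a single factor for each library. Undoing that factor gave whole reads, within 0.01, for 100% of values. STAR, HTSeq, DESeq2, SAMtools, Trim Galore and cutadapt, and the builds GRCm38 and mm9, appear in the submitters' processing notes without versions or roles. Genes were matched by Ensembl ID to GENCODE M21 on GRCm38 (98.8% of IDs) for coordinates and exon lengths.

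The test was limma 3.58.1 in R 4.3.3 on log2(value + 1), which understates changes of low genes, over genes with a mean of at least 10, 2-sided, with a mean-variance trend and Benjamini-Hochberg adjustment. The alternatives on those reads were DESeq2 1.42.0 and the quasi-likelihood test of edgeR 4.0.16; others changed the scaling, pseudocount, filter and libraries. Scripts were tested on simulated counts. Shares were compared by exact permutation (scipy 1.17.1). Distances and per kb levels are descriptions.

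The members and gene lists were chosen with earlier results of these data known, so no list gives independent support. Genes named beyond the members are the 3 most abundant of a list when none passed limma, those past DESeq2, the 3 nearest profiles of each member ranging over at least 1 on the log2 scale, and others, single cell type markers among them, chosen after their values were seen; 2 genes that this rule names are not reported here. Promoters came from RefSeq (7 members matched). Those of Fosb, Fosl2 and Jund were not printed and, like that of Junb, held none of the motifs set in capitals. The RefSeq start was that of the GENCODE gene in Fos and Jun and another one in Fosb, Fosl2, Junb, Jund and Atf3.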

Additional observations from a re-analysis of the deposited data

How the results depend on the processing

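No member passed in any setting run (0 of 10), and DESeq2 was the only setting to call genes at all (84). The edgeR and DESeq2 tests were run with all 6 libraries only, and every other setting used limma. The range over runs that each left out 1 library was -0.498 to 0.84 for Fos, -0.14 to 0.17 for Fosl1, -0.24 to 0.89 for Jun, -0.49 to 1.44 for Egr1 and -0.38 to 0.39 for Atf3 (log2 fold change), so these 5 have no settled direction. Without both vector control 1 and ATM KO 2, a choice made after seeing the data, the values were -0.11 for Fos, 0.12 for Fosl1 and 0.25 for Atf3, turned round, and 0.15 for Jun and 0.26 for Egr1, not turned round. Fosb, Fosl2, Junb, Jund and Ier2 stayed positive in all settings (with 1 library left out 0.081 to 0.36 for Fosb, 0.21 to 0.73 for Fosl2, 0.55 to 1.33 for Junb, 0.14 to 0.21 for Jund and 0.23 to 0.74 for Ier2), at adjusted p of 0.186 or more in every one. The count of members whose groups did not overlap, with ATM KO higher, was 1 to 3 with 1 library left out, 2 without vector control 1 (19.6% of genes) and 3 without ATM KO 2 (12.2%), and 4 without both (26.7%). The share differences, ATM KO minus vector control in percentage points, ranged from -2.97 to 1.59 for Fos, -0.11 to 0.44 for Fosb, -12.3 to 0.93 for Fosl1 and -3.39 to 0.31 for Jun with 1 library left out. Without division by exon length that of Fosb was -0.395 instead of 0.12. The cause was not tested.

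Whether the replicate numbers pair the libraries is not known. Deviations of same-numbered libraries correlated at -0.021, -0.58 and 0.53. No ATM KO library correlated best with the control of its own number, but ATM KO 3 was nearly tied, at 0.533 with vector control 2 and 0.528 with vector control 3. With 3 libraries a group and vector control 1 far from the other controls, these values cannot decide the question. With the replicate number as a block 0 genes and 0 members passed limma, with 296 genes at an unadjusted p below 0.05; in this balanced design the block cannot move a fold change, and the limma adjusted p of Junb was 0.9999 with it. Another scaling, pseudocount or filter changed no direction of a member. With 3 libraries a group and the spread seen here, the 95% intervals of the fold, ATM KO over vector control, were wide in both directions. They ran from 0.32 to 5.07 for Fos, from 0.42 to 4.73 for Jun and from 0.21 to 12.3 for Egr1.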
